A study of Homo sapiens with 20 samples.

Results

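The accessible chromatin of SW872 cells expressing full-length CAMTA1 was compared with that of the same cells expressing full-length TFE3. SW872 is an established human liposarcoma cell line. The comparison took the CAMTA1 and TFE3 peak lists, 2 of the 7 lists of an ATAC-seq study, which together held 380072 of the 1407450 peaks deposited for all vectors and came from 5 of its 20 libraries. ATAC-seq marks open DNA by letting a transposase insert sequencing adapters into it, and a peak is a stretch in which such insertions pile up above the level of the genome. A peak of one list was called shared if it overlapped a peak of the other by 1 bp or more. It was called one-sided if its summit −log10 p, the peak caller's significance at the peak's highest point, was 6 or more and no peak of the other list lay within 1 kb.

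CAMTA1 and TFE3 are the C-terminal partners of the fusion proteins TAZ-CAMTA1 and YAP-TFE3, which drive epithelioid hemangioendothelioma, a vascular sarcoma. CAMTA1 is a calmodulin-binding transcription activator with a DNA-binding domain of its own, and TFE3 is a basic helix-loop-helix leucine zipper factor of the MITF family, known for its control of lysosomal and metabolic genes. In the fusions, the N-terminal part of TAZ or YAP, which are effectors of the Hippo pathway and bind TEAD factors, is joined to the C-terminal part of one of these proteins.

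The CAMTA1 group had 3 libraries and the TFE3 group had 2, numbered 2 and 3 in their titles. They were read against the empty vector (EV, 3 libraries, of which the title of the third says that it was redone), TAZ-CAMTA1 and YAP-TFE3, the fusions (3 each), and TAZ4SA and YAP5SA (3 each), full-length TAZ and YAP with serines changed to alanine. The titles of the YAP-TFE3 libraries name YAP5SA as the YAP part. All cells carried a retroviral vector, empty or coding for a tagged protein, with a drug resistance marker, and were stable pools rather than single clones, and the replicates were transduced separately according to the methods of the study. The protein was therefore made from the vector on top of whatever CAMTA1 and TFE3 the cells make themselves, and the peak lists do not report how much of it each line made. 

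The lists give 1 set of peaks per vector and no value per library. No comparison below has a replicate error or a test, and peaks are not replicates. Intervals are 95% intervals that cover counting error only. The CAMTA1 list held 223651 peaks and the TFE3 list 156421, a ratio of 1.43, and the lengths of the other lists ran from 152702 (TAZ4SA) to 236893 (TAZ-CAMTA1). The shares of peaks with a summit −log10 p of 6 or more were close, at 32.9% for CAMTA1 (73556 peaks) and 30.4% for TFE3 (47513 peaks), within the range of 27.4% to 34.1% over all lists. The highest summit of the TFE3 list stood at 41.0, below those of the other lists, which lay between 59.3 and 72.8. Sequencing depth per list is not known here. The number of libraries, the depth and the vector cannot be told apart in any difference between the 2 lists.

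Most of what was open with TFE3 was also open with CAMTA1, while a large part of the CAMTA1 list, mostly weak peaks, had no counterpart with TFE3. Of the 156421 TFE3 peaks, 141533 overlapped a CAMTA1 peak (90.5%, Wilson interval 90.3% to 90.6%). Of the 223651 CAMTA1 peaks, 126499 overlapped a TFE3 peak (56.6%, interval 56.4% to 56.8%). With the CAMTA1 list cut to its 156421 peaks of highest summit, so that both lists were equally long, the shares were 83.7% for TFE3 and 73.0% for CAMTA1. The gap between the directions was then smaller and had the same sign. These shares stand for 130902 TFE3 peaks and 114193 CAMTA1 peaks. In lists of equal length such a gap can only come from peaks that overlap several peaks of the other list. It is therefore not read as a better coverage of the TFE3 sites.

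The CAMTA1 peaks without a TFE3 overlap were small. They numbered 97152, with a median width of 100 bp, a median area under the curve of 53.0 and a median summit −log10 p of 4.02. The area sums the caller's statistic over the peak, and the lowest area in every list was 20. CAMTA1 peaks that were overlapped had a median width of 395 bp. The 14888 TFE3 peaks without a CAMTA1 overlap were of the same small kind, with a median width of 98 bp, an area of 36.4 and a summit of 3.82.

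The share with a counterpart followed the strength of the peak, and more steeply in the CAMTA1 list. Of the CAMTA1 peaks with a summit under 4, 17.4% overlapped a TFE3 peak, and the share was 47.2% between 4.5 and 5, 71.9% between 5 and 6, 92.1% between 6 and 7 and 98.6% between 7 and 8. None of the 28514 CAMTA1 peaks with a summit of 10 or more lacked a TFE3 overlap. Of the TFE3 peaks, 73.3% had a counterpart already in the weakest band, 95.8% between 4.5 and 5 and 99.2% between 5 and 6. From 6 upwards, 1 TFE3 peak of 47513 lacked an overlap.

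**Figure D1:**
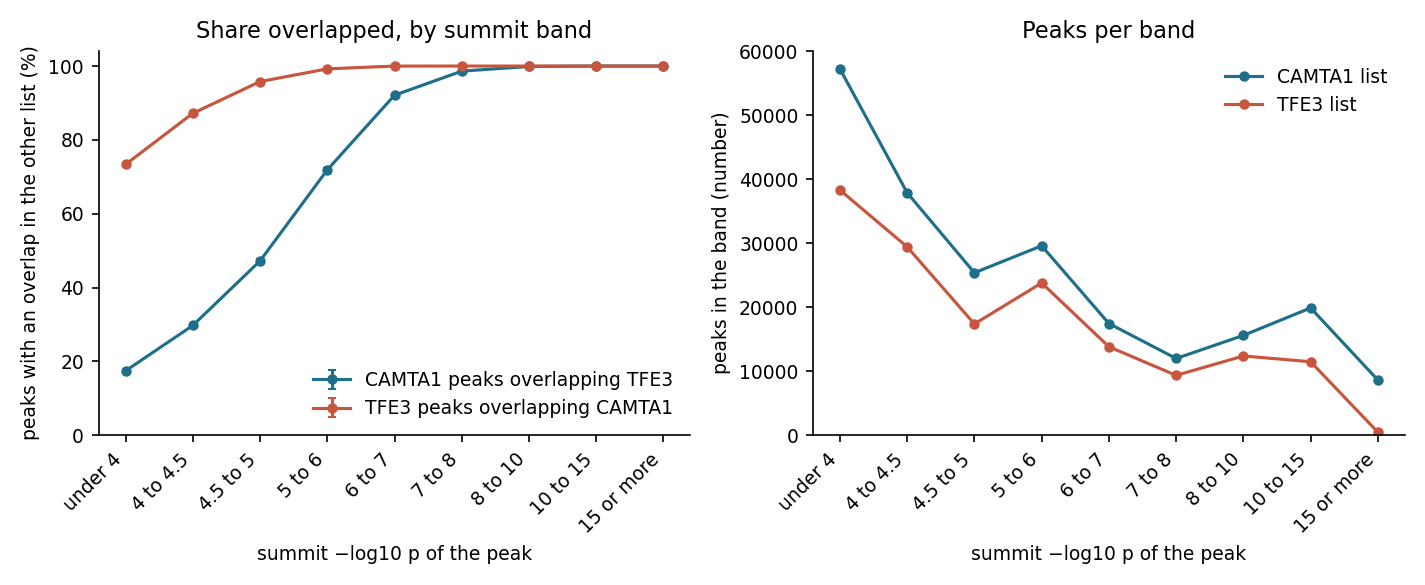
Left, the percentage of peaks overlapped by a peak of the other list (y axis) by the band of the peak's summit −log10 p (x axis), for the CAMTA1 list and the TFE3 list, with Wilson 95% intervals that are mostly smaller than the points. Right, the number of peaks in each band. The CAMTA1 curve climbs from 17.4% in the weakest band to 92.1% between 6 and 7, and the TFE3 curve starts at 73.3%.

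Peaks of one list were at times divided in the other. A CAMTA1 peak held 2 or more TFE3 peaks in 18047 cases (8.07% of the list), and these CAMTA1 peaks had a median width of 1068 bp. A TFE3 peak held 2 or more CAMTA1 peaks in 5916 cases (3.78% of its list), with a median width of 752 bp. Division was thus met at wide peaks in both directions, and the values below rest on the pairs in which each peak overlapped exactly 1 peak of the other list. There were 97968 such pairs, 43.8% of the CAMTA1 list and 62.6% of the TFE3 list.

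Within these pairs the CAMTA1 peak was the wider and larger one. The median width was 333 bp with CAMTA1 and 231 bp with TFE3, and the median of the differences, TFE3 minus CAMTA1, was -42 bp, with quartiles of -156 and 1 bp. The CAMTA1 peak was wider in 73.8% of pairs, the TFE3 peak in 25.1%, and 1.03% were equally wide. The median area was 382 with CAMTA1 and 168 with TFE3. The median log2 ratio of areas, TFE3 over CAMTA1, was -0.96, and the TFE3 area was the larger in 11.6% of pairs. The median summit −log10 p was 6.20 against 4.93.

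This offset was spread evenly over the genome. On the 22 autosomes the median log2 ratio of areas lay between -1.06 (chromosome 10) and -0.85 (chromosome 19). The median width difference per autosome lay between -50.5 and -30 bp, so no single chromosome carried it.

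The offset was also tight among large peaks and loose among small ones. In the 15191 pairs with a mean width of 1000 bp or more, 90% of log2 area ratios lay between -1.31 and -0.53, around a median of -0.87, and 26 pairs (0.171%) had the larger area with TFE3. In the 21952 pairs with a mean width under 150 bp, the same range was -2.60 to 1.16 and 24.8% had the larger area with TFE3. The Spearman correlation of the area percentiles, each taken within its own list, was 0.87 over all 97968 pairs, 0.97 in the widest class and 0.29 in the narrowest. These correlations run across peaks of 1 list per vector, share the lower limit of the caller and are given as descriptions.

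The rank of a shared peak depended on which peaks it was ranked among. By the percentile of its area within the whole list, the TFE3 peak of a pair ranked higher in 12.0% of pairs, with a median percentile of 53.4 against 68.4 for the CAMTA1 peak. With both lists cut to 156421 peaks the share was 50.5%, and with ranks taken among the 97968 pairs alone it was 51.8%. The low whole-list share was thus lost once the additional weak peaks of the CAMTA1 list were set aside. Ranks among the pairs alone are balanced between the lists by construction, so neither share is read as a lead of TFE3.

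How far a partner fell below its counterpart depended on which list set the band. Pairs whose CAMTA1 summit lay between 6 and 7 numbered 12871, and their TFE3 summits had a median of 4.91, with 90% of them between 3.79 and 6.31. Pairs whose TFE3 summit lay between 6 and 7 numbered 9254, and their CAMTA1 summits had a median of 8.27, with 90% between 6.10 and 10.4. For CAMTA1 summits under 4, the 8332 pairs had a median log2 area ratio of 0.28, so that the TFE3 peak was the larger there, and for CAMTA1 summits of 15 or more it was -0.87. Choosing pairs by a low value in one list raises the other by comparison, and these bands are given for the levels they show.

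Summits of shared peaks sat close together. The median distance between the CAMTA1 summit and the TFE3 summit was 17 bp over the 97968 pairs, 75% lay within 54 bp and 90% within 147 bp. In 4.57% of pairs both summits fell on the same base and in 38.7% they were at most 10 bp apart. The shift had no side. The TFE3 summit lay to the right in 47.4% and to the left in 48.0%, with a median signed shift of 0.

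Wide peaks combined the closest and the most distant summits. In pairs with a mean width of 1000 bp or more the median distance was 10 bp and 10.3% of summits coincided, yet 18.2% were more than 150 bp apart (2765 pairs). In pairs with a mean width of 250 to 500 bp the median distance was 24 bp, and 12.9% were more than 150 bp apart. A narrow peak cannot hold summits far apart, and in pairs under 150 bp wide 0.260% passed that distance.

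**Figure D2:**
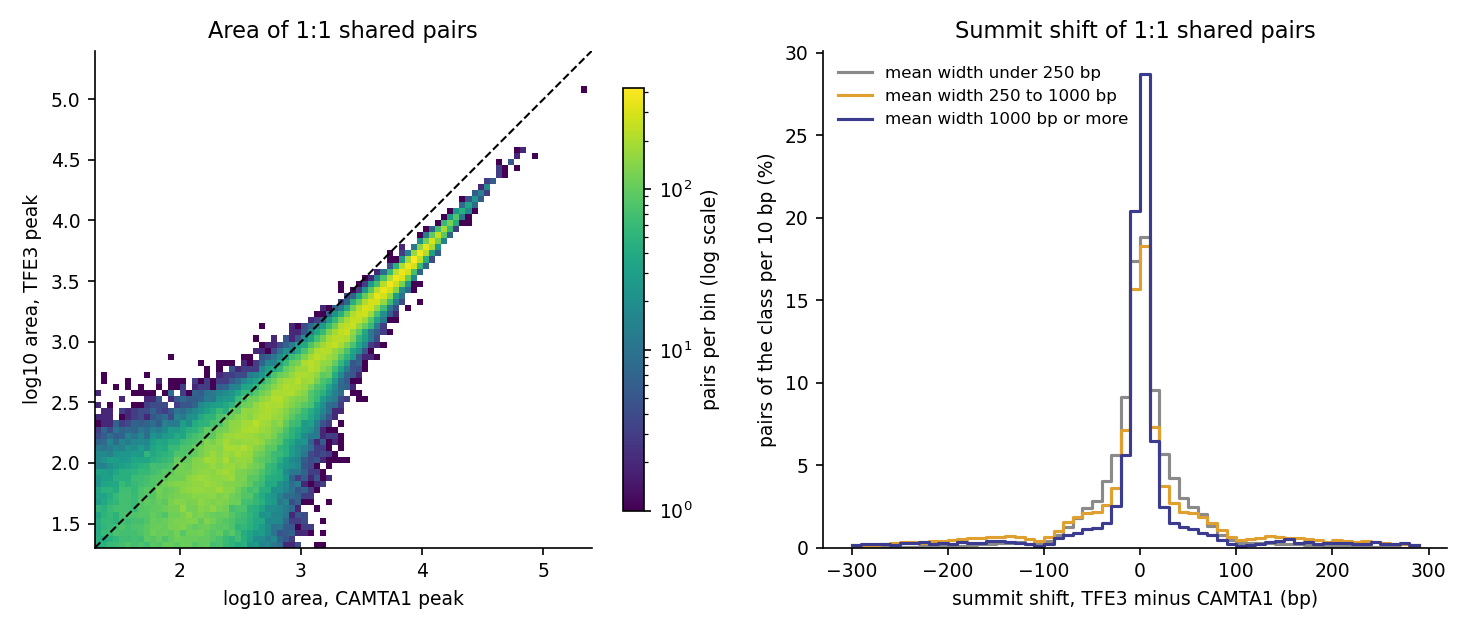
Left, the log10 area of the CAMTA1 peak (x axis) against that of the TFE3 peak (y axis) in the 97968 pairs in which each peak overlapped exactly 1 of the other list, with the number of pairs per bin in colour on a log scale and a dashed line of equal areas. Right, the shift of the summit, TFE3 minus CAMTA1 in bp, as the percentage of pairs per 10 bp in 3 classes of mean width. Most pairs lie below the dashed line, more narrowly so at large areas, and the shifts centre on 0.

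The largest shared sites had a peak in all 7 lists, and TFE3 had the smallest area at each of the 5. They were ranked by the smaller of the CAMTA1 and TFE3 areas. The first lay at chr1:564412-570354 (hg19, positions counted from 1), a peak of 5943 bp with an area of 216907 with CAMTA1 and 125017 with TFE3. The other lists had areas between 190621 and 252415 there. The second, at chr18:106635-112573, had 67778 with CAMTA1 and 36845 with TFE3, and the other 5 lists ran from 63490 to 77729. The others lay at chr1:121482562-121485485, chr7:61967108-61971368 and chr16:46385775-46396927. At the last of these the lists spread more widely, from 33439 with TFE3 over 85436 with CAMTA1 to 291480 with TAZ4SA. Very large areas of this kind were thus held by every vector, EV included. Whether they reflect open chromatin was not tested.

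Among the 31110 pairs with both summits at 6 or more, the extremes in rank were small peaks. In the 5 pairs that fell the most from CAMTA1 to TFE3, the difference of area percentiles (TFE3 minus CAMTA1) lay between -22.0 and -19.96 points. These percentiles come from whole lists of unequal length, in which the median difference over all 31110 pairs was -3.28 points. The first, at chr8:133619237-133619709, had an area of 1166 with CAMTA1 and 235 with TFE3, and 46.0 with EV, 119 with TAZ4SA, 81.8 with YAP5SA, 499 with TAZ-CAMTA1 and 751 with YAP-TFE3. It was highest with CAMTA1 and the fusions and lower in the remaining lists. The second, at chr20:37564588-37564991, had 946 with CAMTA1 and 229 with TFE3, but the largest area there was that of YAP5SA, 4891, followed by 2052 with TAZ4SA, and EV stood at 56.5. The third, at chr11:9777112-9777964, had 1412 against 290, with 1203 for YAP5SA and 246 for YAP-TFE3. The other two were at chr7:143332836-143333351 (1182 against 264) and chr2:567897-568932 (2163 against 364).

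In the 5 pairs that rose the most from CAMTA1 to TFE3, the same difference lay between 8.93 and 13.4 points, on the same scale and with the same offset. At chr18:60408407-60408708 the area was 264 with CAMTA1 and 646 with TFE3, and 382 with EV, 1105 with TAZ-CAMTA1 and 929 with YAP-TFE3. At chr6:43251454-43252045 it was 469 with CAMTA1 and 1284 with TFE3, with 357 for EV, 2024 for TAZ-CAMTA1, 1826 for YAP-TFE3 and no peak with TAZ4SA. The remaining 3 were at chr5:110719172-110719504 (277 against 626), chr9:37035188-37035870 (354 against 697) and chr5:170033990-170034227 (310 against 563). Since these sites were picked for their CAMTA1 and TFE3 values, the areas of the other lists are given as levels only.

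The pairs in which TFE3 had the larger area were few, and their levels in lists that played no part in choosing them were as follows. Among the 31110 pairs with both summits at 6 or more, 514 had the larger area with TFE3 (1.65%). At the 507 of them with an EV peak, the median area with TAZ-CAMTA1 was 3.45 times that with EV, and with YAP-TFE3 2.95 times, while TAZ4SA had 0.177 times and YAP5SA 1.01 times the EV area. Over the 30984 of all these pairs with an EV peak, the same ratios were 2.33, 2.34, 0.582 and 1.23. TAZ4SA had a peak at 68.3% of the 514 sites and at 93.9% of all 31110. The 41 pairs in which the TFE3 percentile was at least 5 points higher had ratios of 4.88 (TAZ-CAMTA1), 2.99 (YAP-TFE3), 0.130 (TAZ4SA) and 1.10 (YAP5SA). The 9893 pairs in which the CAMTA1 percentile was at least 5 points higher had, at the 9804 with an EV peak, ratios of 3.17 (TAZ-CAMTA1), 3.24 (YAP-TFE3), 0.558 (TAZ4SA) and 1.63 (YAP5SA). The sets were not matched for peak size, and the offset of the percentiles sets how many pairs pass the limit of 5 points each way.

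One-sided peaks were found in 1 direction only at this threshold. Of the 73556 CAMTA1 peaks with a summit −log10 p of 6 or more, 931 had no TFE3 peak within 1 kb (1.27%, interval 1.19% to 1.35%). Of the 47513 TFE3 peaks, 0 had no CAMTA1 peak within 1 kb (0%), which allows a share of up to 0.00631%. The difference of the shares was 1.27 percentage points (Newcombe interval 1.19 to 1.35). A share of this size was not rare among the lists. Over the 42 ordered pairs of the 7 lists the one-sided share ran from 0 to 17.4% with a median of 2.06%, and 18 pairs had a lower share than CAMTA1 against TFE3.

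Set against EV, both lists had one-sided peaks. There were 3622 CAMTA1 peaks without an EV peak within 1 kb (4.92%) and 130 such TFE3 peaks (0.274%). In the reverse direction, EV had 28 strong peaks without a CAMTA1 peak (0.0598%) and 203 without a TFE3 peak (0.433%). The TFE3 list had no one-sided peak against TAZ-CAMTA1 either, and 4 against YAP-TFE3. TAZ4SA was the list against which both had their highest one-sided share, with 8907 one-sided CAMTA1 peaks (12.1%) and 2117 one-sided TFE3 peaks (4.46%). A TFE3 peak of this strength was thus nearly always open with CAMTA1 and with either fusion.

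The TFE3 count was above 0 at each lower minimum tried, and a count of 0 at 6 fixes it at 0 for every higher one. With a minimum of 5, 66 TFE3 peaks and 5192 CAMTA1 peaks were one-sided. With 5.5 there were 8 and 2237, and with 7 there were 0 and 111. At a minimum of 8, 13 CAMTA1 peaks were left, and at 9, 2. A higher minimum cannot raise a count, and the CAMTA1 count stayed above the TFE3 count throughout. A summit of 6 is also a different rank in the lists. Among the 47513 highest summits of each list, 24 CAMTA1 peaks and 0 TFE3 peaks were one-sided. Among the 73556 highest of each, there were 931 and 85.

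**Figure D3:**
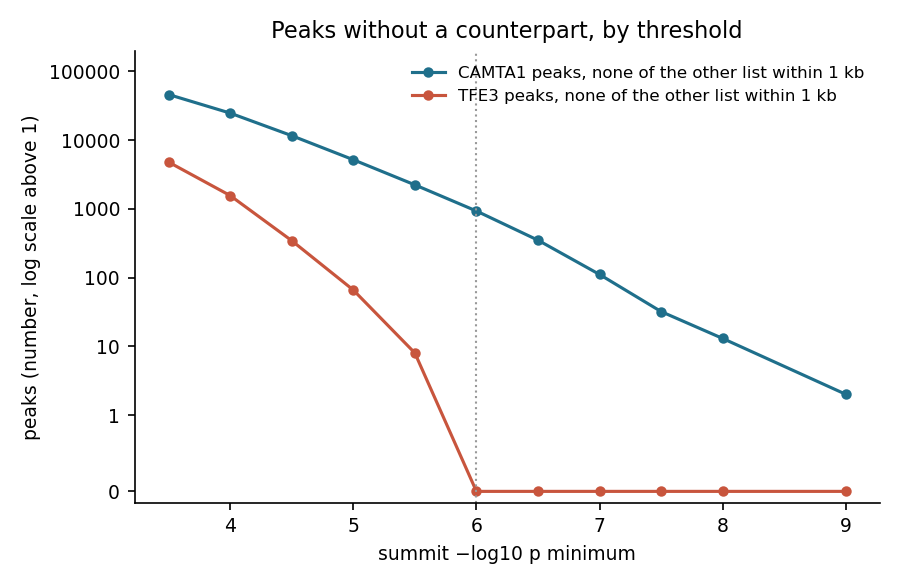
The number of peaks with no peak of the other list within 1 kb (y axis, log scale above 1) by the minimum of the summit −log10 p (x axis), for CAMTA1 and TFE3, with a dotted line at 6. The CAMTA1 count falls from 5192 at 5 to 931 at 6 and 13 at 8, and the TFE3 count from 66 at 5 to 0 at 6.

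Peaks lay close to the limits on both sides. The weakest one-sided CAMTA1 peak had a summit of 6.0005 and an area of 872, and the strongest that fell short of 6 with no TFE3 peak within 1 kb had 5.9996 and an area of 570. By distance, the nearest CAMTA1 peak inside the limit lay 994 bp from a TFE3 peak and the nearest outside it lay 1000 bp away. A further 631 CAMTA1 peaks with a summit of 6 or more had no overlapping TFE3 peak but one within 1 kb, at a median gap of 253 bp.

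The 931 one-sided CAMTA1 peaks came from the weak end of the strong peaks. Their median summit was 6.35, their highest 9.22, and 820 (88.1%) lay under 7. Their median width was 297 bp (range 104 to 1164) and their median area 383 (range 170 to 1418). The 71994 strong CAMTA1 peaks with a TFE3 overlap had a median summit of 8.91, a width of 777 bp and an area of 1431. Within the band from 6 to 7 the difference was smaller. The 820 one-sided peaks had a median width of 286 bp and an area of 361, and the 16075 overlapped ones 354 bp and 448.

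They were scattered over the genome. They fell on 24 chromosomes and in 726 bins of 1 Mb, of which 560 held a single one and 6 held 4 or more. The fullest bin, 60 to 61 Mb of chromosome 20, held 6. The median distance from one to the next was 746633 bp, and 54 (5.80%) lay within 10 kb of another. Their distance to the nearest TFE3 peak had a median of 6700 bp, with 145 under 2 kb, 351 at 10 kb or more and 30 at 100 kb or more. Their share among the strong CAMTA1 peaks of an autosome ran from 0.466% on chromosome 19 (interval 0.267% to 0.812%) to 1.79% on chromosome 4 (interval 1.33% to 2.40%). The intervals of these 2 chromosomes, the lowest and the highest of 22, did not overlap.

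Few one-sided CAMTA1 peaks were private to CAMTA1. Of the 931, 366 overlapped an EV peak (39.3%, interval 36.2% to 42.5%), 740 a TAZ-CAMTA1 peak (79.5%, 76.8% to 81.9%) and 826 a YAP-TFE3 peak (88.7%, 86.5% to 90.6%). YAP5SA had a peak at 707 (75.9%) and TAZ4SA at 486 (52.2%). Either fusion was open at 891 (95.7%), and 9 sites (0.967%) had a peak in none of the other lists. At 148 sites every list but TFE3 had a peak.

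Split by EV and the fusions, 2 classes held most of them. The largest was open in both fusions and not in EV, with 351 sites (37.7%, interval 34.6% to 40.9%). The next was open in EV and both fusions, with 324 (34.8%, interval 31.8% to 37.9%), and the intervals of these 2 shares overlapped. Of the sites without EV, 128 (13.7%) had YAP-TFE3 alone of the fusions, 47 (5.05%) TAZ-CAMTA1 alone and 39 (4.19%) neither. Of the sites with EV, 23 had YAP-TFE3 alone, 18 TAZ-CAMTA1 alone and 1 neither. In all, 526 sites (56.5%) had no EV peak but a peak in at least 1 fusion. The EV list was shorter, with 171102 peaks against 236893 (TAZ-CAMTA1) and 235795 (YAP-TFE3), which favours this class. At the 71994 strong CAMTA1 peaks with a TFE3 overlap, EV had a peak at 93.9% and each fusion at 99.6%. The same split was not counted for those peaks.

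TAZ4SA and YAP5SA added to this split. Of the 351 sites open in both fusions and not in EV, 289 had a peak in TAZ4SA or YAP5SA, YAP5SA at 266 and TAZ4SA at 186. Of the 39 sites with neither EV nor a fusion, 30 had a peak in TAZ4SA or YAP5SA. The median areas of the classes with at least 18 sites lay between 317 and 403 and their median summits between 6.25 and 6.42, so the classes differed little in the strength of their CAMTA1 peak.

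The CAMTA1 side of these sites was more often shared with the TFE3 fusion than with the CAMTA1 fusion. YAP-TFE3 alone of the fusions was open at 151 of the 931 sites and TAZ-CAMTA1 alone at 65. Where present, the YAP-TFE3 peak had a median area of 238 and the TAZ-CAMTA1 peak one of 169. With both fusion lists cut to the 152702 peaks of highest summit, the length of the shortest list, the shares were 73.9% for YAP-TFE3 and 61.0% for TAZ-CAMTA1. The area was larger than that of the CAMTA1 peak at 234 sites with YAP5SA, 199 with YAP-TFE3, 98 with TAZ-CAMTA1, 81 with TAZ4SA and 19 with EV. Of all 73556 strong CAMTA1 peaks, 270 (0.367%) had no YAP-TFE3 peak within 1 kb and 379 (0.515%) no TAZ-CAMTA1 peak. These counts include the one-sided peaks. Strong CAMTA1 peaks with a TFE3 overlap showed no clear lean, with 99.61% overlapping YAP-TFE3 and 99.59% TAZ-CAMTA1. In the band from 6 to 7 these shares were 98.57% and 98.67%. At the 631 strong peaks with a TFE3 peak within 1 kb but no overlap, they were 90.3% and 90.8%.

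Peaks of the same band that TFE3 did share were found in the other lists more often, and in percentage points the difference was largest for EV. In the band from 6 to 7, where the median summit was 6.29 for the one-sided and 6.45 for the overlapped peaks, EV had a peak at 38.7% of the 820 one-sided peaks and at 81.4% of the 16075 overlapped ones, a difference of -42.8 percentage points (Newcombe interval -46.1 to -39.3). For TAZ-CAMTA1 the shares were 78.9% and 98.7%, for YAP-TFE3 88.0% and 98.6% and for YAP5SA 74.6% and 88.4%. The difference was smallest for TAZ4SA, at 50% and 56.0%, or -5.99 points (interval -9.49 to -2.49). The one-sided peaks in this band were thus weaker, and also narrower and smaller, as given above, and the part of that in these shares was not tested.

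**Figure D4:**
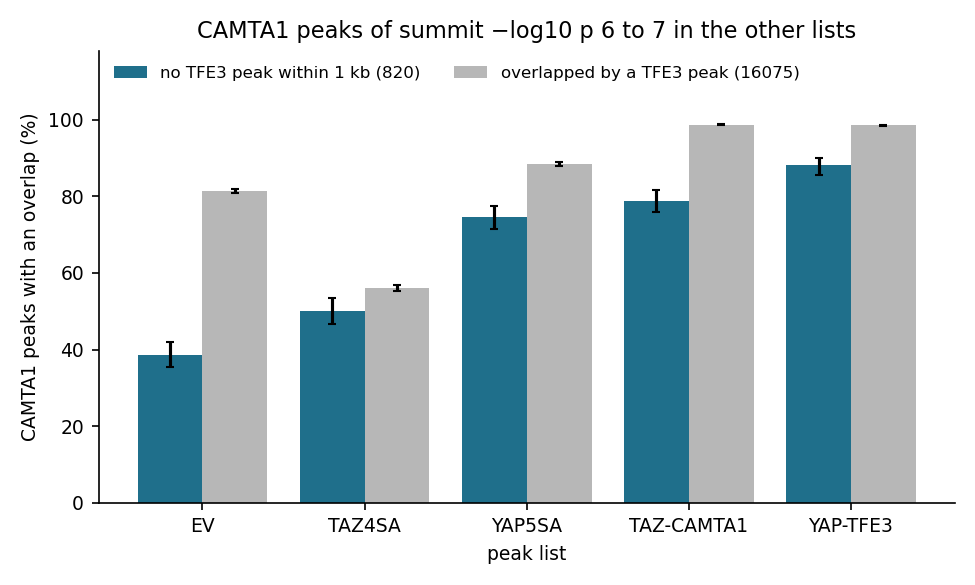
The percentage of CAMTA1 peaks with a summit −log10 p from 6 to 7 that overlap a peak of each other list (x axis), for the 820 with no TFE3 peak within 1 kb and the 16075 overlapped by a TFE3 peak, with Wilson 95% intervals. The bars start at 0. The gap is widest for EV, 38.7% against 81.4%, and narrowest for TAZ4SA, 50% against 56.0%.

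Strong CAMTA1 peaks absent from EV or from TAZ4SA, 2 lists closer in length to that of TFE3, were mostly open with TFE3. TFE3 had a peak at 83.4% of the 3622 CAMTA1 peaks without an EV peak within 1 kb (interval 82.2% to 84.6%) and at 94.4% of the 8907 without a TAZ4SA peak (93.9% to 94.8%). EV had a peak at 81.2% of those without TAZ4SA and at 39.3% of those without TFE3, and TAZ4SA had one at 57.5% of those without EV and at 52.2% of those without TFE3. The median summits of the 3 sets were 6.60, 6.81 and 6.35. The sets share peaks and differ in size, so these shares are not independent of each other.

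The largest one-sided CAMTA1 peaks were peaks of the other vectors too. The first by area lay at chr1:234321686-234322289, 19617 bp from the nearest TFE3 peak, with an area of 1418 and a summit of 9.22. YAP-TFE3 had 731 there, YAP5SA 356, TAZ4SA 238, TAZ-CAMTA1 152 and EV 128, so that CAMTA1 was the highest. At the second, chr2:122857960-122858890, the area was 1368 with CAMTA1 and 1771 with YAP5SA, 983 with TAZ4SA, 911 with YAP-TFE3, 379 with TAZ-CAMTA1 and 90.5 with EV. At the third, chr11:82569342-82570197, it was 1260 with CAMTA1, 3353 with YAP5SA, 1236 with TAZ4SA, 1083 with YAP-TFE3, 257 with EV and 98.9 with TAZ-CAMTA1.

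The next sites repeated both kinds. At chr16:33202190-33203049 the area was 1227 with CAMTA1 and 1304 with YAP-TFE3, and the rest lay between 49.7 (EV) and 219 (YAP5SA). At chr1:177895737-177896706 it was 1224 with CAMTA1, 4129 with YAP5SA, 2524 with TAZ4SA, 395 with YAP-TFE3 and 38.5 with TAZ-CAMTA1, and EV had no peak. YAP5SA had the largest area at 3 of the 5.

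The sites described next were picked from their values. The largest of the 9 sites open with CAMTA1 alone, at chr8:140876086-140876551, had an area of 797 and a summit of 7.74 and lay 92658 bp from the nearest TFE3 peak. The next 2 had areas of 503 and 472. Among the sites with no EV peak and YAP-TFE3 alone of the fusions, the largest lay at chr7:46184824-46185346, with an area of 988 for CAMTA1, 117 for YAP-TFE3, 5738 for YAP5SA and 2401 for TAZ4SA. Among those with TAZ-CAMTA1 alone, it lay at chr12:104173299-104174132, with 1038 for CAMTA1, 140 for TAZ-CAMTA1, 2135 for YAP5SA and 1176 for TAZ4SA. In both classes the largest areas at these sites belonged to YAP5SA.

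The TFE3 list had no strong peak away from CAMTA1, so its own side was described from weaker peaks. There were 4915 TFE3 peaks of any strength with no CAMTA1 peak within 1 kb (3.14% of the list), against 49096 such CAMTA1 peaks (22.0%). Their median width was 100 bp, their median summit 3.82 and their highest 5.77. The single TFE3 peak with a summit above 6 and no overlap, at chr9:85696901-85697084, had a summit of 6.09 and lay 196 bp from a CAMTA1 peak.

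Most of these TFE3 peaks had a peak in a fusion list, and the fusion lists were the longest ones. Of the 4915, 3483 overlapped a TAZ-CAMTA1 peak (70.9%), 3014 a YAP-TFE3 peak (61.3%), 1536 a YAP5SA peak (31.3%), 1314 an EV peak (26.7%) and 508 a TAZ4SA peak (10.3%). At least 1 fusion had a peak at 4045 (82.3%), and 625 (12.7%) had no peak in any other list. Of the 4915, 295 were in YAP-TFE3 and no other list, and 558 in TAZ-CAMTA1 and no other list.

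The weaker peaks of both sides were set side by side in the band of summits from 4 to 5, which is not the same strength in the 2 lists, since shared pairs with a TFE3 summit of 4 to 4.5 had a median CAMTA1 summit of 4.99. TAZ-CAMTA1 had a peak at 81.9% of the 1498 TFE3 peaks without a CAMTA1 peak within 1 kb (interval 79.9% to 83.8%) and at 53.6% of the 19585 CAMTA1 peaks without a TFE3 peak (52.9% to 54.3%). For YAP-TFE3 the shares were 72.3% and 52.0%, and for EV 34.8% and 20.8%. For TAZ4SA they were 11.7% and 18.7%, and for YAP5SA 36.0% and 38.8%, with intervals that overlapped. Among overlapped peaks of the band the TFE3 share was the higher in every list, with 96.8% against 93.2% in TAZ-CAMTA1, 94.6% against 88.7% in YAP-TFE3, 65.2% against 53.0% in EV, 38.3% against 26.2% in TAZ4SA and 74.4% against 62.0% in YAP5SA.

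In this band the CAMTA1 fusion was the more frequent one, among overlapped peaks too. Overlapped TFE3 peaks had 96.8% in TAZ-CAMTA1 and 94.6% in YAP-TFE3, and overlapped CAMTA1 peaks 93.2% and 88.7%. Of the 1498 TFE3 peaks without a CAMTA1 peak within 1 kb, 278 were open in TAZ-CAMTA1 and not in YAP-TFE3, and 134 the other way round. For the 19585 CAMTA1 peaks of the same band without a TFE3 peak within 1 kb the counts were 3530 and 3204. So the excess of YAP-TFE3 at the one-sided CAMTA1 peaks with a summit of 6 or more was not met at weaker CAMTA1 peaks.

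The 5 highest summits among the 4915 TFE3 peaks, chosen after their values were seen, had a larger area with TAZ-CAMTA1 than with YAP-TFE3 at all 5 sites. At chr5:66928614-66929012 the area was 277 with TFE3, 1161 with TAZ-CAMTA1, 428 with YAP-TFE3 and 27.9 with YAP5SA, and the rest had no peak. At chr5:56363432-56363646 it was 244 with TFE3, 1023 with TAZ-CAMTA1, 284 with EV, 194 with YAP-TFE3 and 50.6 with YAP5SA. At chr10:72998086-72998255 there were peaks with TFE3 (200), TAZ-CAMTA1 (340) and YAP-TFE3 (296) only. The TAZ-CAMTA1 area was above the TFE3 area at 4 of the 5 highest and both fusions had a peak at all 5.

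**Figure D5:**
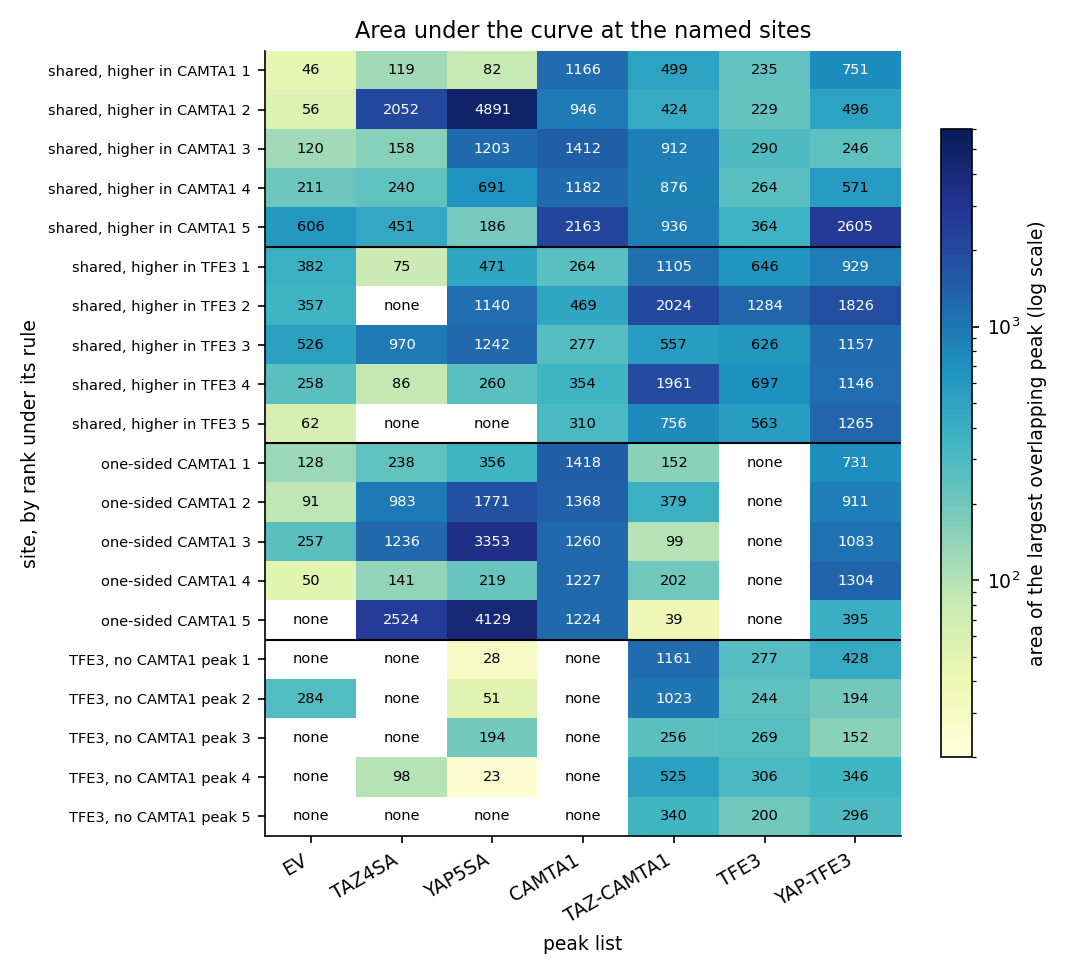
The area of the largest overlapping peak (colour, log scale, and number) in each of the 7 lists (x axis) at 20 sites (y axis), 5 each of shared pairs ranked higher in CAMTA1, shared pairs ranked higher in TFE3, one-sided CAMTA1 peaks by area and TFE3 peaks by summit with no CAMTA1 peak within 1 kb. White fields marked none had no peak. The fusions have a peak at all 20 sites, and YAP5SA has the largest area at 3 of the one-sided sites.

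The number of TFE3 peaks relative to CAMTA1 peaks also differed between regions. Over 512 bins of 5 Mb with at least 100 CAMTA1 peaks, the ratio had a median of 0.711, with 90% of bins between 0.587 and 0.807. The lowest was 0.398 at 60 to 65 Mb of chromosome 13, with 180 TFE3 and 452 CAMTA1 peaks, of which 80.1% had a summit under 5. EV had 753 peaks in that bin, YAP5SA 726, TAZ4SA 661, TAZ-CAMTA1 449 and YAP-TFE3 357, so that TFE3 had the fewest. The next lay at 165 to 170 Mb of chromosome 5, with 353 TFE3 and 819 CAMTA1 peaks, and again more in TAZ4SA (1045) and YAP5SA (1205). The highest ratio, 0.915, was at 80 to 85 Mb of chromosome 8, with 215 TFE3 and 235 CAMTA1 peaks. In that bin 45.1% of the CAMTA1 peaks had a summit under 5, so that the bin poorest in TFE3 peaks held the larger share of weak CAMTA1 peaks of these 2.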

How the data were processed

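ATAC-seq peak lists of 7 vectors in SW872 cells were analysed. According to the study's methods, the authors trimmed reads with NGmerge, aligned them with BWA-MEM to hg19 and called peaks with Genrich (ATAC-seq mode), with PCR duplicates, blacklisted regions and the mitochondrial genome removed. The labels name Bowtie 0.12.2 and a mouse build instead, which the human chromosome lengths in the files contradict. The methods describe calling on each replicate. Only a single list per vector is analysed here, and how its libraries were joined is not given in the sources used here. Whether the lists still hold peaks in blacklisted regions was not checked.

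The authors deposited, for each peak, its start, end and summit offset, a signal (the area under the curve) and the −log10 p of the summit. A score and the −log10 q of the summit were not used. The values come from the caller. Percentiles were ranked within a list. Areas and summits were also compared between lists as the caller gave them, without scaling for depth or the number of libraries. Intervals were Wilson and, for a difference, Newcombe intervals at 95% (statsmodels 0.14.6), and a share of 0 was bounded at 3 counts. Medians, percentiles and correlations used numpy 2.4.6, pandas 2.3.3 and scipy 1.17.1. Overlap and distance counts were tested on simulated data and differed from those of bedtools 2.31.1 by 0.

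The named sites were the 5 largest by area among one-sided peaks of each list, the 5 shared pairs (both summits 6 or more) with the largest percentile difference each way and the 5 shared pairs with the largest smaller area, beside the peaks next to the thresholds. Sites outside this rule are named as such. The members, lists and rules were chosen with earlier results of these data known. The reference at hand is of another build, so genes, promoters, sequences and motifs were not analysed here, and the loci of CAMTA1 and TFE3 themselves were not checked.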

Additional observations from a re-analysis of the deposited data

How the results depend on the processing

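Limits. With 1 list per vector there is no replicate error, the lists differ in length and in the number of libraries behind them, and depth is unknown, so a missing peak says only that none was called. No paired analysis was possible because each vector has a list and no value of a single library; leaving out libraries was not run for the same reason, and the promoter and motif alternatives were not run for want of an annotation of the files' build.

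Of 100 alternative values, 29 were unchanged within the counting interval, or within 1.5 times for counts, 69 moved and 2 changed side. Some of the unchanged values could not have changed under their setting. The one-sided counts were 5192 (CAMTA1) and 66 (TFE3) at a summit minimum of 5, shares of 5.03% and 0.0926% that differ by 4.94 points. At 8 there were 13 CAMTA1 peaks, a share and difference of 0.0295%. Asking for no overlap gave 1562 (2.12%, difference 2.12 points) and 1, and 5 kb gave 538 (0.731%, difference 0.731 points). Counting as presence only peaks with a summit of 4 or more gave 2322 (3.16%) and 4 (0.00842%), a difference of 3.15 points. Lists of equal length gave 7 TFE3 peaks by summit (0.0147%) and 2 by area, and 931 CAMTA1 peaks both times. The TFE3 list was not shortened for this, so a cut by summit could not alter the 931. Equal numbers of strong peaks, chosen after seeing the data, gave 24 CAMTA1 peaks at the TFE3 number (0.0505%, difference 0.0505 points) and 85 TFE3 peaks at the CAMTA1 number (0.116%, difference 1.15 points). In all of these the CAMTA1 count was the higher.

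The shares of CAMTA1 peaks overlapping TFE3 and of TFE3 peaks overlapping CAMTA1 are given in that order. They were 41.5% and 59.3% where at least 50% of both peaks had to overlap. Both of these rest on 92760 peaks and differ only by the length of the lists. For windows reaching 250 bp from the summit both ways they were 65.0% and 88.1%, and with summits of 4 or more 60.2% and 92.8%. At equal length they were 73.0% and 83.7% by summit, and 73.5% and 84.2% by area. There the difference between the directions can only come from peaks that overlap several peaks of the other list.

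For shared pairs, the median width difference was -88 bp over every overlapping pair, -36 bp with 50% overlap, -68 bp with both summits at 6 or more and -49 bp at equal length. The median summit distance was 28, 16, 11 and 16 bp in that order, the share wider in TFE3 24.0%, 26.6%, 20.7% and 22.7%, and the Spearman correlation 0.661, 0.943, 0.970 and 0.881, or 0.846 for the percentile of the summit. The share ranked higher in TFE3 was 13.2%, 11.3% and 4.11% in the first 3 settings and 16.2% by the summit. It changed side narrowly at equal length (50.5%) and among the pairs alone (51.8%), where the peaks ranked are by construction as many in both lists. These values are not read as a lead of TFE3.

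Presence of the one-sided CAMTA1 peaks in EV, TAZ-CAMTA1 and YAP-TFE3 was 44.8%, 83.8% and 91.4% within 1 kb, 35.7%, 61.0% and 73.9% with lists of equal length, and 46.2%, 100% and 100% for the 13 peaks with a summit of 8 or more. Values on autosomes alone were unchanged for each result they were computed for, which leaves out presence in EV and the fusions.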
